A study of Mus musculus with 4 samples.

Results

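The 9 genes described here, of 54532 in the count table, are used as identity genes of the B cell lineage and of its antibody-secreting end stage, the plasma cell. They are Jchain, Mzb1, Pou2af1, Cd79a, Cd79b, Cd22, Pax5, Spib and Ebf1, and each was found by its symbol on 1 row of the table. RNA levels come from preparations of bone marrow mesenchymal stem cells (BMSCs), the marrow stromal cells from which bone, fat and cartilage cells can be grown. Control mice carried floxed Rheb alleles (rheb FL/FL), and their littermates labelled knockout carried the same floxed alleles and Ucp1-Cre, a recombinase driven in the brown adipocyte lineage. There were 2 libraries in each group, 1 per mouse, and every mouse was C57BL/6J, 1 month old and given as male. Cre was present in the labelled knockout group alone, so an effect of Cre and an effect of the deletion cannot be told apart. Ucp1 itself had 1 count in replicate 2 labelled knockout and 0 in the other libraries, and no source used here says how the BMSCs were isolated or cultured.

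B cells develop in marrow under Ebf1 and Pax5, transcription factors that switch on the B cell programme and hold it in place. Mature B cells carry a receptor made of membrane immunoglobulin and the signalling pair Cd79a and Cd79b, which Cd22 restrains. On activation some become plasma cells, which drop Pax5, enlarge the secretory apparatus and release antibody, with Jchain joining immunoglobulin units and Mzb1 aiding their folding. Several of these genes are also known outside the lineage: Ebf1 in marrow stromal cells and fat precursors, Spib and Mzb1 in plasmacytoid dendritic cells, and Cd22 in some mouse macrophages. B cells and plasma cells are blood cells and not stromal cells.

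Depth was even, with 17425669 to 19001878 counts a library. Rheb, the small GTPase that activates mTORC1, was not lower in the libraries labelled knockout, at 89.7 and 81.5 CPM (counts scaled to library size) in controls against 129 and 121 CPM. Reads of Xist numbered 19502 and 31103 in both replicates 1 and 8 and 2 in both replicates 2, while Ddx3y, on the Y chromosome, was read 1945 and 1631 times in replicates 2 and 0 times in replicates 1. That goes against the male label for the replicates 1, and each group held 1 library of each kind, so ratios within a replicate number are given below. Ptprc, the common leukocyte antigen, stood at 322 and 149 CPM in controls against 316 and 282 CPM, and the 16 marrow stromal genes listed were all above the low-count filter. Of 14963 genes tested with edgeR's quasi-likelihood test, 0 passed an adjusted p of 0.05 (278 had an unadjusted p below 0.05). DESeq2 called 18 genes, 14 of them lower.

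Jchain, Mzb1, Pou2af1, Cd79a and Spib were lower in both libraries labelled knockout than in both controls, by 2.69-fold to 8.27-fold in group means. Pax5 was lower on average with overlapping groups, Cd79b and Ebf1 differed by less than the spread between replicates, and Cd22 was higher in the libraries labelled knockout. None of the 9 passed edgeR's test after adjustment over all genes, where 0% of 14963 genes were called, and their adjusted p ran from 0.699 for Jchain to 1.00. At an unadjusted p below 0.05, edgeR gave 5 of 9 as lower, against 1.1% of all tested genes. Groups did not overlap, with the labelled knockout lower, for the same 5 of 9, against 11.3% of all tested genes. With the labelled knockout higher, groups did not overlap for 1 of 9, Cd22, against 1612 of 14963 tested genes. DESeq2 called 1 of 9 as lower, Jchain, against 0.0711% of 19697 genes. All 9 passed the low-count filter, which asks for 0.552 CPM in 2 libraries, Mzb1 through the controls alone. Pou2af1, Cd79a, Spib and Pax5 reached that level in only 1 library labelled knockout, so they too passed with the help of the controls. In bulk RNA, fewer cells of a type and less RNA per cell cannot be told apart.

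**Figure D1:**
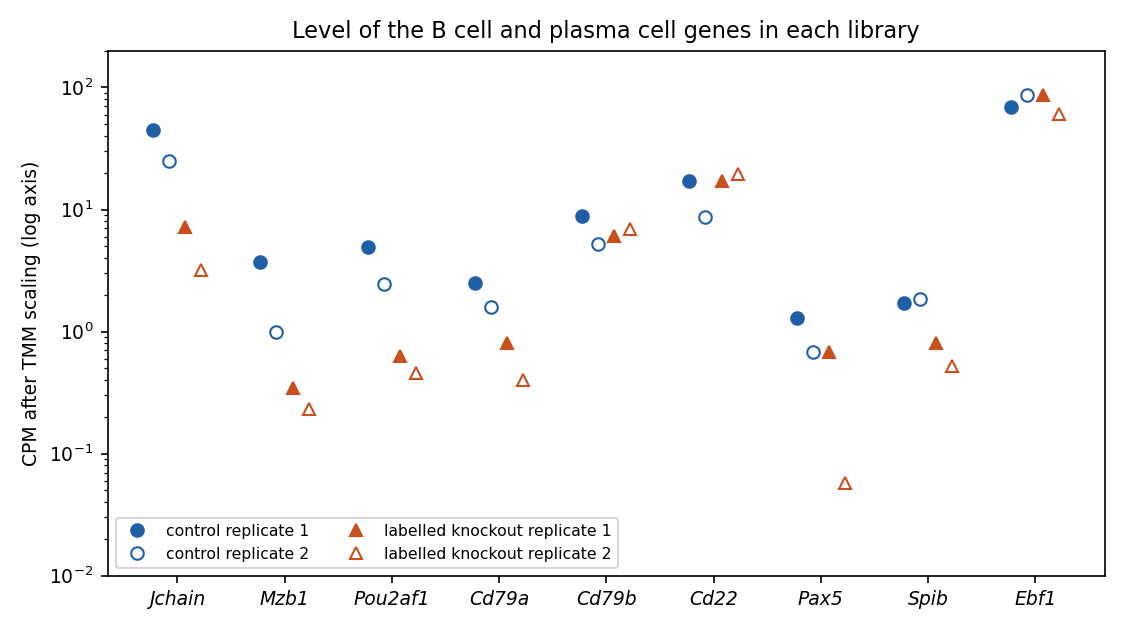
CPM after scaling with trimmed means (log axis) of each of the 9 genes, with circles for the 2 controls, triangles for the 2 libraries labelled knockout, filled symbols for replicate 1 and open ones for replicate 2. Circles lie above triangles for Jchain, Mzb1, Pou2af1, Cd79a and Spib, whereas Cd79b and Ebf1 have mixed symbols and the triangles of Cd22 are above its circles.

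Of the secretory genes, Jchain (ENSMUSG00000067149; mm10 chromosome 5, 88519809 to 88527891, minus strand) was the most abundant. It encodes the joining chain of polymeric IgA and IgM. Jchain had 837 and 472 counts in control replicates 1 and 2, and 127 and 55 counts in replicates 1 and 2 labelled knockout. Scaled to depth, these were 44.7 and 24.9 CPM against 7.25 and 3.17 CPM, or 34.8 ± 14.0 against 5.21 ± 2.89 CPM (SD, n = 2 each). Both controls were high, the libraries labelled knockout were low, and the groups did not overlap. The group means differed 6.67-fold, with a log2 fold change of -2.74 (SE 0.45) and an edgeR adjusted p of 0.699 (unadjusted p = 0.000345). DESeq2 gave an adjusted p of 2.73e-07, and limma-voom 0.690. Replicate 1 labelled knockout lay at a log2 ratio of -2.61 to its control and replicate 2 at -2.93, so both replicate numbers showed a difference of like size.

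The call on Jchain turned on which library was left out. Without control replicate 1 its log2 fold change was -2.26 with an edgeR adjusted p of 9.29e-07, and without control replicate 2 it was -3.08 with 2.04e-13. Without replicate 1 or 2 labelled knockout it was -3.46 or -2.24, with adjusted p up to 0.999. Leaving out control replicate 2 gave calls for 3 of the 9 genes as lower (Jchain, Pou2af1 and Mzb1), against 0.32% of genes tested. Leaving out control replicate 1 gave 1 of the 9 (Jchain), against 0.892%. In each such fit the single library of a group is assumed to vary like the other group.

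Mzb1 (ENSMUSG00000024353; mm10 chromosome 18, 35647266 to 35649367, minus strand), a chaperone of the endoplasmic reticulum that helps assemble and secrete IgM, had far fewer reads. It had 70 and 19 counts in the controls and 6 and 4 in the libraries labelled knockout, which is 3.74 and 1.00 CPM against 0.343 and 0.230 CPM. The groups did not overlap, but the controls were 3.74-fold apart. Its log2 fold change was -3.02 (SE 0.79, edgeR adjusted p = 1.00, unadjusted p = 0.0052). In the filter, 0 libraries labelled knockout reached the 0.552 CPM asked of 2 libraries. Counting error alone was wide: the ratio of labelled knockout to control was 0.0917 (95% exact interval 0.0325 to 0.210) in replicate 1 and 0.230 (0.057 to 0.693) in replicate 2. Both intervals lie below a ratio of 1. Without control replicate 1 the log2 fold change was -1.79, and without control replicate 2 it was -3.66 with an edgeR adjusted p of 0.000177.

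Set against immunoglobulin RNA, Jchain differed much less between the groups. The counts of 264 immunoglobulin genes summed to 1114 and 621 CPM in the controls against 225 and 114 CPM in those labelled knockout. Per 1000 CPM of immunoglobulin there were 40.1 and 40.0 CPM of Jchain in the controls, and 32.2 and 27.9 in the libraries labelled knockout. Both of the latter were lower than both controls. Mzb1 stood at 3.35 and 1.61 CPM per 1000 in controls and at 1.52 and 2.03 in the libraries labelled knockout. The corresponding values of Pou2af1 were 4.46, 3.98, 2.79 and 4.06, and those of Cd79a were 2.25, 2.54, 3.56 and 3.55, in the order control 1, control 2, labelled knockout 1 and 2. Thus Cd79a per immunoglobulin was higher in the libraries labelled knockout without overlap, though on only 14 and 7 counts of Cd79a there. The shares of Mzb1 and Pou2af1 overlapped between groups. These ratios were not tested.

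Of the receptor genes, Cd79a (ENSMUSG00000003379; mm10 chromosome 7, 24897381 to 24902197, plus strand) encodes Ig-alpha, 1 chain of the pair that carries the antigen receptor's signal into the cell. It had 47 and 30 counts in the controls and 14 and 7 in the libraries labelled knockout, or 2.51 and 1.58 CPM against 0.799 and 0.403 CPM. Both libraries labelled knockout lay below both controls, 3.40-fold in means. The log2 fold change was -1.75 (SE 0.58, edgeR adjusted p = 1.00, unadjusted p = 0.0165), with -1.54 and -1.74 within replicates 1 and 2.

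Its partner Cd79b, Ig-beta (ENSMUSG00000040592; mm10 chromosome 11, 106311341 to 106314762, minus strand), did not follow it. Cd79b had 167 and 100 counts in the controls and 107 and 121 in the libraries labelled knockout, or 8.92 and 5.27 CPM against 6.11 and 6.97 CPM. The libraries labelled knockout lay between the controls, and the log2 fold change was -0.12 (SE 0.36, edgeR adjusted p = 1.00). The log2 ratios within replicates went in opposite directions, -0.54 and 0.40. Without control replicate 1 the log2 fold change was 0.30. Scaled to exon length, Cd79b exceeded Cd79a 3.62-fold and 3.39-fold in the controls, and 7.78-fold and 17.6-fold in the libraries labelled knockout. The bulk RNA of the pair was thus unequal in every library. It was further from equal in both libraries labelled knockout, where Cd79a had 14 and 7 counts. Whether cells other than B cells contributed to the reads of Cd79b was not tested.

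Cd22 (ENSMUSG00000030577; mm10 chromosome 7, 30865402 to 30880342, minus strand), a sialic acid-binding lectin that dampens receptor signalling, was the single gene of the 9 with higher values in the labelled knockout. It had 319 and 166 counts in the controls and 301 and 342 in the libraries labelled knockout, or 17.03 and 8.74 CPM against 17.19 and 19.7 CPM. The groups did not overlap, which held in this direction for 1612 of all 14963 tested genes. Control replicate 1 and replicate 1 labelled knockout were level, however, with a log2 ratio of 0.01, against 1.16 in replicate 2. The log2 fold change was 0.52 (SE 0.35, edgeR adjusted p = 1.00). It was 0.13 without control replicate 2 and 1.07 without control replicate 1. The CPM ratio of Cd22 to Cd79a was 6.79 and 5.53 in the controls and 21.5 and 48.9 in the libraries labelled knockout, with no overlap.

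Of the regulators, Pou2af1 (ENSMUSG00000032053; mm10 chromosome 9, 51213708 to 51240080, plus strand) encodes OCA-B, the coactivator that B cells use with octamer-binding factors at immunoglobulin genes. It had 93 and 47 counts in the controls and 11 and 8 in the libraries labelled knockout, or 4.97 and 2.47 CPM against 0.628 and 0.461 CPM. The groups did not overlap and their means differed 6.83-fold. The log2 fold change was -2.76 (SE 0.55, edgeR adjusted p = 0.805, unadjusted p = 0.00112), and DESeq2 gave an adjusted p of 0.0740. Within replicates the log2 ratios were -2.80 and -2.20. Without control replicate 2 edgeR gave an adjusted p of 0.000111 at a log2 fold change of -3.16.

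Spib (ENSMUSG00000008193; mm10 chromosome 7, 44525993 to 44532071, minus strand), an ETS factor of mature B cells and plasmacytoid dendritic cells, had the tightest controls of the lower genes. It had 32 and 35 counts in the controls and 14 and 9 in the libraries labelled knockout, or 1.71 and 1.84 CPM against 0.799 and 0.519 CPM. Both libraries labelled knockout were lower, 2.69-fold in means, with a log2 fold change of -1.42 (SE 0.52, edgeR adjusted p = 1.00, unadjusted p = 0.0269). Unlike Jchain and Mzb1, Spib was not higher in control replicate 1 than in control replicate 2. Of the plasmacytoid genes listed, Siglech had 1 count in control replicate 2 and 0 counts elsewhere, and Klk1 had 0 counts in all libraries. In the order control 1, control 2, labelled knockout 1 and 2, Ccr9 had 3, 2, 13 and 1 counts. Pacsin1 had 5, 4, 0 and 1 counts in that order, and Cox6a2 had 22, 38, 25 and 50. The 7 genes of that list summed to 243 and 259 CPM in controls and to 262 CPM in both libraries labelled knockout. Nearly all of that was Tcf4 (166 to 195 CPM) and Bst2 (64.3 to 92.5 CPM), which many cell types express. Whether plasmacytoid cells contributed to the reads of Spib was not tested.

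Pax5 (ENSMUSG00000014030; mm10 chromosome 4, 44524757 to 44710487, minus strand), the factor that maintains B cell identity, was the least abundant member per kilobase. It had 24 and 13 counts in the controls and 12 and 1 in the libraries labelled knockout, or 1.28 and 0.685 CPM against 0.685 and 0.0576 CPM. Control replicate 2 and replicate 1 labelled knockout were level, so the groups overlapped, and replicate 2 labelled knockout stood low. The log2 fold change was -1.38 (SE 0.90, edgeR adjusted p = 1.00), -3.95 without replicate 1 labelled knockout and -0.50 without replicate 2. The ratio by counting error was 0.535 (95% exact interval 0.244 to 1.11) in replicate 1 and 0.0842 (0.00198 to 0.560) in replicate 2. The interval of replicate 1 includes a ratio of 1.

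Ebf1 (ENSMUSG00000057098; mm10 chromosome 11, 44617317 to 45008091, plus strand), which starts B cell development and is also a stromal and adipocyte-lineage factor, had 1298 and 1636 counts in the controls and 1518 and 1048 in the libraries labelled knockout. These were 69.3 and 86.1 CPM against 86.7 and 60.4 CPM. The highest and the lowest library were both labelled knockout, and the log2 fold change was -0.08 (SE 0.24, edgeR adjusted p = 1.00). The within-replicate log2 ratios were 0.32 and -0.51, and the log2 fold change was 0.17 without replicate 2 labelled knockout and 0.10 without control replicate 2. There were 54.1 and 126 reads of Ebf1 for each read of Pax5 in the controls, and 126.5 and 1048 in the libraries labelled knockout, the last resting on 1 read of Pax5.

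**Figure D2:**
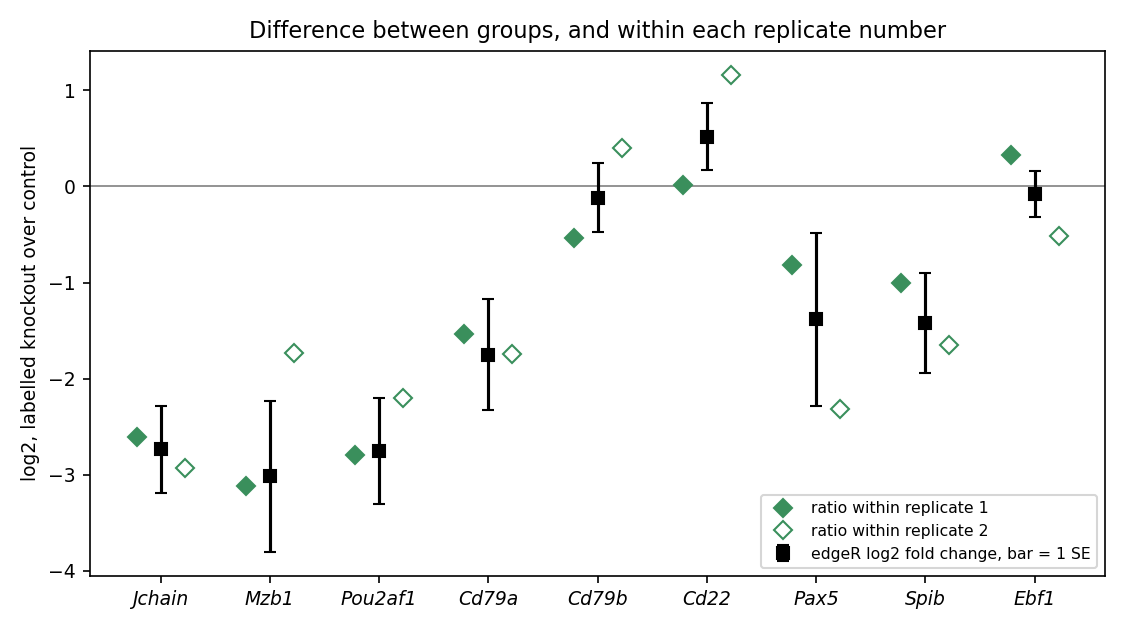
Log2 fold change of each gene, labelled knockout over control, from edgeR (black squares, bars of 1 SE), with the log2 ratio of CPM + 0.1 within replicate 1 (filled diamonds) and within replicate 2 (open diamonds). All markers of Jchain, Mzb1, Pou2af1, Cd79a, Pax5 and Spib lie below 0, whereas the diamonds of Cd79b and Ebf1 lie on both sides.

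The promoters of Jchain, Pou2af1, Spib and Pax5 are shown because the group means of these 4 genes were at least 2.65-fold lower in the labelled knockout and their window holds none of the gene's own annotated exons. Each is the 250 bases before RefSeq's start of transcription, 5′ to 3′ on the gene's strand, from RefSeq's GRCm38.p6 table, the build that mm10 is based on. Capitals mark matches to the searched motifs.
Jchain, chr5:88527898-88528147, minus strand: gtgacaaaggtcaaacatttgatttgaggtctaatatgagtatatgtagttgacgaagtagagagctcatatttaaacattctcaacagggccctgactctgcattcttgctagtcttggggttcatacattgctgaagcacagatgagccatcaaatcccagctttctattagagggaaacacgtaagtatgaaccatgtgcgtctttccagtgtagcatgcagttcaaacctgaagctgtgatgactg
Pou2af1, chr9:51213440-51213689, plus strand: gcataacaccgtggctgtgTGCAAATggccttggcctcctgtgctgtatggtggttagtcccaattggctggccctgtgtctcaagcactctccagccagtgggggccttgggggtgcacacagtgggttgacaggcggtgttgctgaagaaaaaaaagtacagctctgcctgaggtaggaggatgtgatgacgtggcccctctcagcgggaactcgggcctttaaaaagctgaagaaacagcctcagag
Spib, chr7:44532072-44532321, minus strand: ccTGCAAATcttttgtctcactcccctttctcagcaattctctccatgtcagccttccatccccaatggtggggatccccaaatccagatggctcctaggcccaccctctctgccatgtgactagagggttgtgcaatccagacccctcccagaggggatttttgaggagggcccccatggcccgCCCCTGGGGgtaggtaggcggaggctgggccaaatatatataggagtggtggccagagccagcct
Pax5, chr4:44710695-44710944, minus strand: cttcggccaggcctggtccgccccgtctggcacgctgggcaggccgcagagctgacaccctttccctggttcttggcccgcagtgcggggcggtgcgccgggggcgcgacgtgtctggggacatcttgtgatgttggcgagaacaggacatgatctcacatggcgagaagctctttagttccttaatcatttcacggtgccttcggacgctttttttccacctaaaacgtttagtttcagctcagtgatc

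Promoters were held for 7 of the 9 genes (8 promoters, 2 of them of Ebf1). The octamer ATGCAAAT, the site at which Pou2af1 acts as coactivator, was searched on both strands and was in 0 of the 7, against 1.60% of 32851 promoters. Its 7 letters TGCAAAT, searched after the promoters had been read, were in Pou2af1, 231 bases before the start, and in Spib, 248 bases before it, against 3.56% of all promoters. The EBF core CCCNNGGG was in Spib, with overlapping matches 65 and 64 bases before the start, and in Cd22, against 11.8% of all. GAGGAAGT, the core bound by PU.1 and Spi-B, was in 0 of the 7, against 2.44% of all. A match is a description of letters, and its absence says only that these letters are not in this window.

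Levels of the 9 genes were ordered per kilobase of exon. In the controls the order of mean CPM per kilobase was Jchain (13.8), Ebf1 (7.97), Cd79b (4.96), Mzb1 (2.62), Cd22 (2.56), Pou2af1 (1.46), Cd79a (1.40), Spib (0.619) and Pax5 (0.111). Cd79b and Mzb1, Mzb1 and Cd22, Cd22 and Pou2af1, and Pou2af1 and Cd79a overlapped between neighbours, and the other neighbours did not. In the libraries labelled knockout the order was Ebf1 (7.54), Cd79b (4.57), Cd22 (3.66), Jchain (2.07), Cd79a (0.413), Mzb1 (0.317), Spib (0.230), Pou2af1 (0.214) and Pax5 (0.0420). There the neighbours from Cd79a to Pou2af1 overlapped, and the others did not. Jchain stood above all others in the controls and behind Ebf1, Cd79b and Cd22 in the libraries labelled knockout.

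The genes were set beside lists of cell type genes by their values over the 4 libraries. Distance is the root mean square difference in log2(CPM + 0.1), each gene centred on its own mean. It is a description over 4 points that share depth and preparation, and it does not name a cell of origin. Distance counts the size of the variation as well as its shape, so genes that vary little lie near lists that vary little. To Jchain, the nearest members were Pou2af1 (0.31), Mzb1 (0.46), Cd79a (0.58), Pax5 (0.73) and Spib (0.82), and the farthest were Ebf1 (1.42), Cd79b (1.43) and Cd22 (1.75). Cd79b lay 0.138 from the mean of 10 macrophage genes, against 0.399 for 9 neutrophil genes and 0.433 for 16 marrow stromal genes. Cd22 lay 0.272 from macrophage, 0.303 from neutrophil and 0.616 from stromal genes. Ebf1 lay 0.0954 from the stromal mean and 0.428 from the macrophage mean, whereas Jchain lay 1.43 and 1.55 from them.

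**Figure D3:**
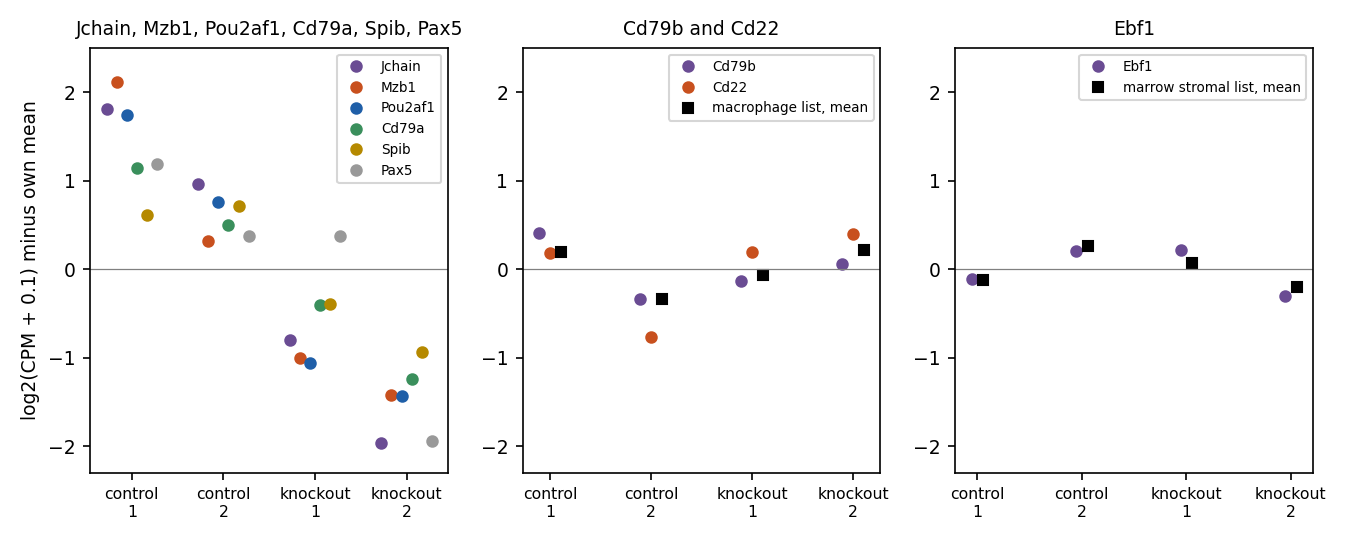
Log2(CPM + 0.1) of each gene minus its own mean, by library, for Jchain, Mzb1, Pou2af1, Cd79a, Spib and Pax5 (left), for Cd79b and Cd22 with the mean of the macrophage list as squares (middle) and for Ebf1 with the mean of the marrow stromal list as squares (right). On the left the values reach from about 2 down to -2 between groups, and in the other panels all values lie within 1 of the mean.

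Among 11624 protein-coding genes outside the immunoglobulin families, the nearest to Jchain were Vnn1 (distance 0.760), Tnfrsf19 (0.807), Igfbp2 (0.863), Crabp2 (0.897) and Pamr1 (0.900). All 5 were farther from Jchain than Pou2af1, Mzb1, Cd79a and Pax5 were. The closest to Ebf1 were Zfp329 (0.0201), Mettl4 (0.0235), Pdk4 (0.0269), Cfap74 (0.0335) and Hoxa10 (0.0366). Among these genes Ebf1 thus had close matches where Jchain had none nearer than 0.760. All 5 lay closer to Ebf1 than the mean of the marrow stromal genes did (0.0954).

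Other genes of the lineage were read from lists, and 0 genes of the lists outside the 9 were called by edgeR or by DESeq2. Of 16 mature B cell surface genes, 9 were tested, 4 lower and 5 higher, with a median log2 fold change of 0.13 against -0.01 over all tested genes and -1.42 over the 9 members. Ly6d, an early lymphoid marker, had 3.47 and 0.948 CPM in the controls against 0.799 and 0.403 CPM (log2 fold change -1.86, SE 0.74, edgeR adjusted p = 1.00). Both libraries labelled knockout were lower than both controls. Ms4a1, the CD20 gene, had 4.59 and 0.316 CPM in the controls against 0.799 and 0.461 CPM in those labelled knockout, so its groups overlapped. Cd72, a lectin of B cells that some myeloid cells also carry, had 41.0 and 25.9 against 38.2 and 52.4 CPM. The 7 genes of that list under the filter, which include Fcmr, Fcrla, Blk and Cr2, summed to 126 and 39 counts in the controls and to 26 and 16 in the libraries labelled knockout. Fcmr had 39, 4, 3 and 0 counts in the order control 1, control 2, labelled knockout 1 and 2. Cr2 had 4, 7, 13 and 3 counts in that order, so replicate 1 labelled knockout was its highest library.

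Genes of earlier and later stages were read unevenly. Of 10 early B cell genes 3 were tested, 2 lower (Lef1 and Sox4) and 1 higher (Il7r), with a median of -0.15. Il7r had 956 and 304 counts in the controls and 703 and 1284 in the libraries labelled knockout. The recombinase gene Rag2 and the surrogate light chain gene Vpreb2 had 0 counts in all libraries. The other 5 genes under the filter summed to 9, 16, 6 and 7 counts, so pre-B cell transcripts were near 0 in both groups. Of 16 plasma cell and secretion genes 12 were tested, 7 lower and 5 higher, with a median of -0.06. Irf4, a plasma cell factor, stood at -0.64 (SE 0.52) on the log2 scale, and Sdc1, the plasma cell marker CD138 that stromal cells also make, at -0.15 (SE 0.23). Slamf7, a surface receptor of plasma cells that NK cells and macrophages also carry, stood at 0.43 (SE 0.39), with -0.32 within replicate 1 and 1.39 within replicate 2. Derl3, Fcrl5, Eaf2 and Tnfrsf17 were under the filter and together had 71 and 25 counts in the controls against 21 and 14.

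All 17 B cell receptor signalling genes, most of them also used by myeloid cells, were tested. The log2 fold change was negative for 4 and positive for 13, with a median of 0.21 (-0.10 within replicate 1 and 0.65 within replicate 2). Both libraries labelled knockout lay above both controls for 2 of the 17, against 1612 of all 14963 tested genes, a similar share. Prkcb, the kinase that links the receptor to NF-kB, had 0.54 (SE 0.22, edgeR adjusted p = 1.00). Of 11 B lineage transcription factors 4 were lower and 7 higher, with a median of 0.12. Ikzf3, the Aiolos gene of B cells and plasma cells, had -0.60, and Ets1 had 0.31.

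**Figure D4:**
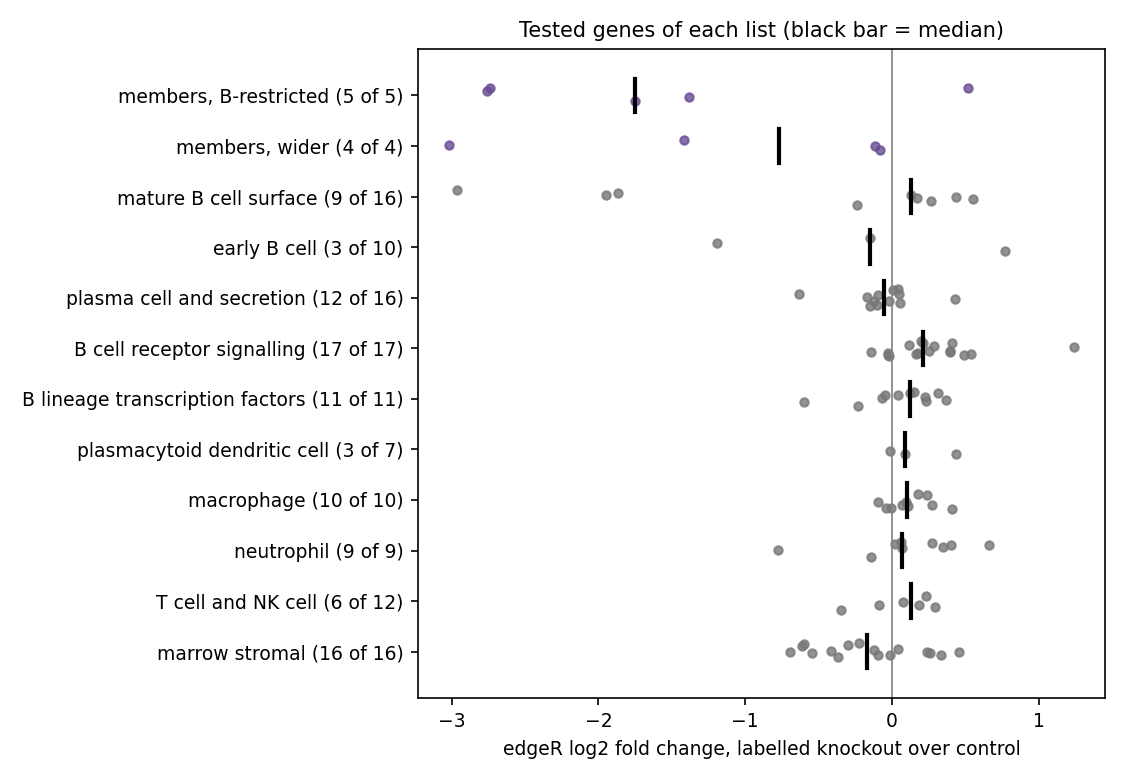
EdgeR log2 fold change, labelled knockout over control, of each tested gene by list (points) with the median as a black bar and the number tested of the number listed beside each name. Jchain, Pou2af1, Cd79a, Pax5 and Cd22, listed as B-restricted although Cd22 is also known in some macrophages, have a median of -1.75 and Mzb1, Cd79b, Spib and Ebf1, listed as wider, have -0.77, and the medians of the other lists lie between -0.17 and 0.21.

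Markers of other blood cells varied with the library. The 10 macrophage genes summed to 11498 and 8018 CPM in the controls against 8893 and 10965 CPM in those labelled knockout, and 9 neutrophil genes to 2775 and 950 CPM against 1920 and 2338 CPM. Control replicate 2 was the lowest library for both. T cell and NK cell genes summed to 43.7 and 21.9 CPM against 38.8 and 38.4 CPM, with Gzma at 0, and 8 erythroid genes to between 0.514 and 1.38 CPM. In none of these 4 lists did both libraries labelled knockout lie below both controls. The 16 marrow stromal genes summed to 22157 and 32379 CPM against 23384 and 25198 CPM, so those groups overlapped as well. Their part in the values of the 9 genes was not tested.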

How the data were processed

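Per the labels' protocols, Trizol RNA went into TruSeq v2 mRNA libraries, a kit that leaves strand unmarked. Reads were trimmed, aligned and counted with tools that include Trimmomatic, HISAT2 and featureCounts on mm10, per the submitters' processing notes. Versions, annotation release and the counting of strand and of multiply mapped reads are not given in the sources used here. All deposited values are raw counts per gene over exons, made by the authors and not normalized. Of the 9 genes, 8 have the same coordinates in GENCODE M21. Exons of Pax5 and Cd22 overlap those of predicted or antisense genes, all listed at 0 counts.

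The 9 genes and all lists were chosen with earlier results of these data known, so no list was tested and nothing was adjusted over a list alone. Counts were tested with edgeR 4.0.16 in R 4.3.3 (filterByExpr, TMM scaling, quasi-likelihood F-test, Benjamini-Hochberg over 14963 genes, 0.05). Alternatives were DESeq2 1.42.0, limma-voom 3.58.1, other scaling and filters, a replicate block, other pseudocounts and leaving out each library. Within-replicate log2 ratios used CPM + 0.1. Intervals are 95% exact (Clopper-Pearson) and cover counting error only. A count of 0 allows up to 3 counts. With 2 libraries a group, an exact permutation test cannot go below p = 0.333, so p-values rest on the spread edgeR shares across genes. Besides the 9 genes, those named are up to 4 per list by smallest p and the 5 nearest by distance to Jchain and to Ebf1. Rheb, Xist and Ddx3y are named as checks of the labels. Some genes that the rule takes are left out of the text. Named after their values were seen were Ptprc, Siglech, Klk1, Rag2, Vpreb2, Gzma and genes under the filter. The edgeR fit was tested on simulated data. Groups and replicate numbers come from the sample titles.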

Additional observations from a re-analysis of the deposited data

How the results depend on the processing

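The count of genes called was 0 by edgeR, 18 by DESeq2, 17 by DESeq2 with a replicate block, and from 0 to 196 when 1 library was left out. Of the 9 genes, 1 was called by DESeq2, 1 by DESeq2 with a replicate block (Jchain, adjusted p = 1.08e-12), and from 0 to 3 when 1 library was left out. The replicate block in edgeR called 0 genes. Replicate numbers go with Xist and Ddx3y in both groups, but no label says that they pair the mice, and with 2 pairs (correlation of deviations 0.245 over 14963 genes) they were not taken as pairs. The median log2 fold change of the tested members, -1.42, was -0.092 under a filter of 5 CPM, which kept only Jchain, Cd79b, Ebf1 and Cd22, and from -2.33 to -1.13 when 1 library was left out. Leaving out 1 library gave Cd79b -0.43 to 0.30 and Ebf1 -0.37 to 0.17, so both turned sign. Over all alternatives, 94 log2 fold changes of the 9 genes kept direction and side of the threshold, 6 came past it and 3 reversed; the cause was not tested. Of 36 within-replicate ratios at CPM + 0.5 and CPM + 1, 4 moved beyond counting error, all at CPM + 1 and of Mzb1, Pou2af1 or Pax5. Depth limits Pax5, Mzb1, Pou2af1, Cd79a and Spib, with 1 to 14 counts a library labelled knockout, and so also the ratios to Cd79a.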

Other observations

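The control mice differed from each other in B cell genes outside the 9, and unevenly. Ms4a1 had 86 counts in control replicate 1 and 6 in control replicate 2, Fcmr, a receptor for IgM, had 39 and 4, and Fcrl5, a receptor-like gene of B cells and plasma cells, had 37 and 3. Other listed genes went the other way, with Cr2 at 4 and 7, Eaf2 at 4 and 12 and Ikzf3 at 20 and 31 counts. The difference was not limited to B cell genes. In the same order, Ptprc stood at 322 and 149 CPM, 9 neutrophil genes at 2775 and 950 CPM, and Xist at 19502 and 8 counts. Jchain was 1.80-fold and Mzb1 3.74-fold higher in CPM in control replicate 1, while Spib was level (0.927-fold). For Ms4a1 and Fcrl5, control replicate 2 lay below replicate 2 labelled knockout, which had 8 and 7 counts. These genes were chosen after their values were seen, and the difference between single mice has no replicate check.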
